A study of Mus musculus with 6 samples.

Results

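The genes described here are the 3 TGF-beta ligands (*Tgfb1*, *Tgfb2* and *Tgfb3*), their 3 receptors (*Tgfbr1*, *Tgfbr2* and *Tgfbr3*) and the 4 latent TGF-beta binding proteins (*Ltbp1*, *Ltbp2*, *Ltbp3* and *Ltbp4*). They were taken by gene identifier from a count table of 27179 genes, and all 10 were found. Bulk RNA-seq was performed on 2 populations of Lin-CD24-Pdgfra+ fibroblasts, CD34 high (CD34hi) and CD34 low (CD34lo), isolated from pubertal mammary glands of female mice that were 6 weeks old, whose strain is FVB/N in the labels and FVB/NJ in the methods of the study. Glands of 2 mice were pooled, and each of the 3 pools supplied both populations, giving 3 CD34hi and 3 CD34lo libraries paired by pool. CD34 was the gate and is no result here. *Cd34* ran from 2489.8 to 2639 TMM-normalized counts per 1000000 (CPM) in CD34hi and from 476 to 793 CPM in CD34lo libraries, so the labels match the sort. *Pdgfra*, the other gate marker, was present in all libraries but differed, with 637 to 922 CPM in CD34hi and 1036 to 1416 CPM in CD34lo libraries (log2 fold change -0.74, adjusted p = 0.0148, edgeR). The 6 fibroblast markers summed to 28612 to 36026 CPM in CD34hi and 48781 to 54585 CPM in CD34lo libraries, and 6 epithelial markers to 31.2 to 37.1 and 26.3 to 37.0 CPM. The sums of some other marker lists separated the populations. The summed level of 4 adipocyte markers was 17.6 to 22.6 CPM in CD34hi and 94.2 to 116 CPM in CD34lo libraries, with both tested genes higher in CD34lo. Most of this sum was *Fabp4*, at 17.4 to 22.0 CPM in CD34hi and 92.9 to 114 CPM in CD34lo libraries. The study uses *Fabp4* as a marker of committed preadipocytes among its fibroblasts. *Plin1*, the other tested gene, was low, at 0.0671 to 0.166 CPM in CD34hi and 0.354 to 1.24 CPM in CD34lo libraries (log2 fold change -2.82, adjusted p = 0.00655, edgeR). *Adipoq* and *Cidec* were too low to be tested. That of 4 Schwann cell markers was 6.75 to 7.03 CPM in CD34hi and 15.5 to 20.9 CPM in CD34lo libraries, with 3 of 4 higher in CD34lo. That of 3 keratinocyte markers was 14.3 to 19.9 CPM in CD34hi and 3.60 to 7.12 CPM in CD34lo libraries, with both tested genes higher in CD34hi and *Krt1* at 0 counts throughout. The part of these cells in the results was not tested.

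TGF-beta is secreted in a latent form. The growth factor stays bound to its own propeptide, the propeptide is usually disulfide-linked to a latent TGF-beta binding protein, and that protein fastens the complex to fibrillin and fibronectin in the matrix until integrins, thrombospondin or proteases release the ligand. The free dimer binds the type II receptor, which recruits and phosphorylates the type I receptor, and SMAD2 and SMAD3 then carry the signal to the nucleus. In the mammary gland, TGF-beta is known as a restraint on ductal growth and as an inducer of matrix genes in stromal cells.

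Library totals lay between 28764779 and 52402410 counts, at which 3 counts correspond to 0.0572 to 0.104 CPM. This floor covers counting error only. All 10 genes passed the filter on low counts, and the smallest count of any of them in any library was 67 (*Ltbp2*). Differences are given as CD34hi vs CD34lo on the log2 scale, and each adjusted p comes from the edgeR fit (quasi-likelihood, Benjamini-Hochberg) of all 15219 genes tested. Of those genes, 35.6% passed an adjusted p of 0.05, 16.9% higher in CD34hi and 18.7% higher in CD34lo fibroblasts, and 50.1% had CPM values that did not overlap between the populations.

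The 3 ligand genes differed between the populations in opposite directions, and so did not move as a family. *Tgfb2*, *Tgfbr2* and *Ltbp1* were higher in CD34hi fibroblasts, whereas *Tgfb1* and *Tgfb3* were higher in CD34lo fibroblasts. The differences in *Tgfbr1*, *Tgfbr3*, *Ltbp2*, *Ltbp3* and *Ltbp4* did not pass. Thus 5 of 10 genes passed, against 35.6% of all genes, and 7 of 10 had no overlap between the populations, against 50.1%. Of the 7, 4 lay higher in CD34hi, where the share of all genes was 24.8%, and 3 lay higher in CD34lo, where it was 25.3%. With pool as the replicate block, *Tgfbr3* also passed (adjusted p = 0.0345, edgeR), which made 6 of 10 genes, against 40.5% of all genes. The median log2 fold change was -0.04 over the 10 genes and -0.01 over all genes tested. In bulk RNA, fewer cells that express a gene and less of its RNA per cell cannot be told apart.

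**Figure D1:**
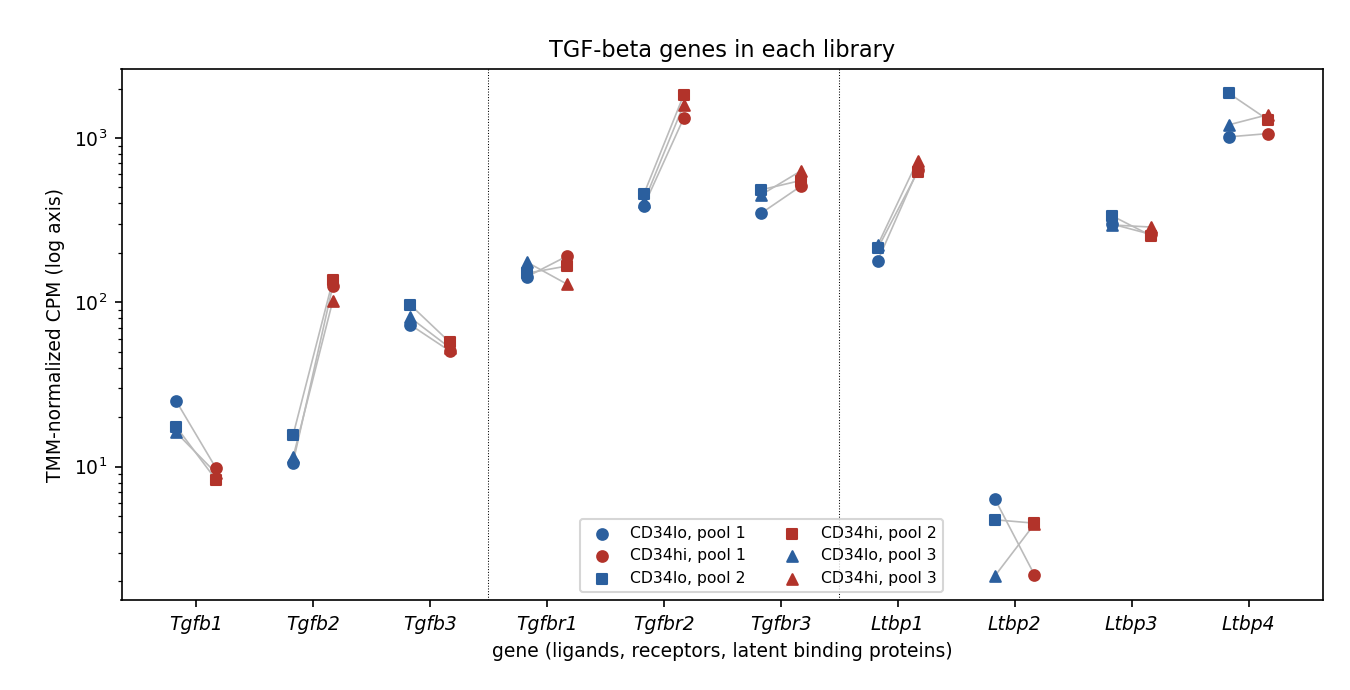
TMM-normalized CPM (log axis) of the 10 genes in each library. Blue symbols are CD34lo and red symbols CD34hi libraries, the symbol shape marks the mouse pool, and grey lines join the libraries of a pool. *Tgfb2*, *Tgfbr2* and *Ltbp1* climb from blue to red in all 3 pools, and *Tgfb1* and *Tgfb3* descend in all 3. The lines of *Tgfbr1*, *Ltbp2* and *Ltbp4* climb in some pools and descend in others.

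The DNA just before the transcription start of the genes that differed most in each direction is shown here, so that the promoters of genes with opposite patterns can be read beside each other. RefSeq windows (GRCm38.p6) of 250 bases ending at the start were matched for 8 of the 10 genes, in 12 windows, because several genes have more than 1 start. The windows of *Tgfb1* (chr7:25686752-25687001, plus strand), *Tgfb2* (chr1:186705990-186706239, minus strand), *Tgfbr2* (chr9:116175364-116175613, minus strand) and the upstream start of *Ltbp1* (chr17:75005279-75005528, plus strand) are printed 5′ to 3′ along the gene. Capitals mark matches, on either strand, to any of TATAAA (the core promoter box of that name), CACGTG (an E-box), TGACGTCA (the cAMP response element), GGGCGG (bound by the Sp1 family), CCAAT (bound by the NF-Y complex), CAGACA (letters bound by SMAD proteins) and TGANTCA (the AP-1 site).
Tgfb1: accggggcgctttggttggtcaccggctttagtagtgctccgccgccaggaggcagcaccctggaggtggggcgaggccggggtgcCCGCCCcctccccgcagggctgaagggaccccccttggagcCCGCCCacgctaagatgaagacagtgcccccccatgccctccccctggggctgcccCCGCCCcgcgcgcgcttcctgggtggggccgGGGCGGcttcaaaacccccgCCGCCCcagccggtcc
Tgfb2: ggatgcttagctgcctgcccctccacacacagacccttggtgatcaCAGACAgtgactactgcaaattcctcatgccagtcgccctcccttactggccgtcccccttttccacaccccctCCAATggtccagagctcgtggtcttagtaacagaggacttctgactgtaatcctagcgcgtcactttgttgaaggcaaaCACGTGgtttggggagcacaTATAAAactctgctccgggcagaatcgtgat
Tgfbr2: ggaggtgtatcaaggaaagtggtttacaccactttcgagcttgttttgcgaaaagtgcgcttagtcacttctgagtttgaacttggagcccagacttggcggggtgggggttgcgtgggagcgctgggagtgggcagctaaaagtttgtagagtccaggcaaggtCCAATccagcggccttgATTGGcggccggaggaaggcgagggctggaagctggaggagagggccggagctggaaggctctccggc
Ltbp1: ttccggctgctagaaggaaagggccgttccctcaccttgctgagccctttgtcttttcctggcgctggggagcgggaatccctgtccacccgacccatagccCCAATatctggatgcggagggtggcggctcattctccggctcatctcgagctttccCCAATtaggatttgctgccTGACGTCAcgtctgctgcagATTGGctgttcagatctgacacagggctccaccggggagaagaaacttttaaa
The *Tgfb2* window held a TATAAA whose first base lay 31 bases before the start, a CACGTG at 51 bases, a CCAAT at 130 bases and a CAGACA at 204 bases. The *Tgfb1* window held 5 matches to GGGCGG and none to the other motifs, and its G and C content was 75.2%, against 53.6% for *Tgfb2* and a median of 52.4% over all windows. The window of *Ltbp1* held a TGACGTCA at 73 bases and 3 matches to CCAAT, and that of *Tgfbr2* held 2 matches to CCAAT. None of the matches in the 4 printed windows overlapped another. Over all 32851 windows of this length in the table, TATAAA occurred in 12.4%, CACGTG in 6.02%, TGACGTCA in 1.55%, GGGCGG in 32.7%, CCAAT in 33.8%, CAGACA in 17.1% and TGANTCA in 6.75%. The matches describe the letters of these windows and do not show that a factor binds there.

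*Tgfb2* (gene 21808, GRCm38 chromosome 1, 186623186 to 186705992) encodes the ligand that needs betaglycan for efficient receptor binding and that lacks the RGD integrin-binding sequence of the other propeptides. It had 126 CPM in pool 1, 136 CPM in pool 2 and 102 CPM in pool 3 of CD34hi fibroblasts. The CD34lo libraries of the same pools had 10.6, 15.5 and 11.4 CPM. The highest CD34lo library was thus far below the lowest CD34hi library. The fitted difference was 3.29 on the log2 scale (standard error 0.19, adjusted p = 6.71e-06, edgeR), a 9.75-fold difference, and the separate pools gave 3.58, 3.13 and 3.17. Of the 15219 genes tested, 201 including *Tgfb2* had a log2 fold change at least as high.

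*Tgfb1* (gene 21803, chromosome 7, 25687002 to 25704996) encodes the ligand with the widest expression across tissues. It had 9.82, 8.33 and 9.15 CPM in the CD34hi libraries of pools 1, 2 and 3, and 25.1, 17.5 and 16.1 CPM in the CD34lo libraries. Every CD34lo value lay above every CD34hi value, and pool 1 of CD34lo stood highest. The fit gave -1.11 on the log2 scale (standard error 0.19, adjusted p = 0.00187, edgeR), with -1.35, -1.07 and -0.82 in the separate pools. *Tgfb1* is also abundant in platelets, leukocytes, endothelium and mural cells, so the markers of these cells are given with it. The sort left out cells positive for CD31, CD45 or TER-119, the lineage markers of endothelial, leukocyte and erythroid cells, and took Pdgfra+ cells. Of 7 leukocyte markers, 3 could be tested and none of these passed, and the summed level of all 7 was 2.37 to 3.15 CPM in CD34hi and 2.96 to 5.33 CPM in CD34lo libraries. *Tyrobp* had 0 counts in 4 libraries and *Cd52* in 4. The platelet markers *Pf4* and *Ppbp* had 0 counts in 5 and 4 libraries, and of the 2 platelet markers of 4 that could be tested, 1, *Itga2b*, was higher in CD34lo fibroblasts. The sum of that list was 14.0 to 17.9 CPM in CD34hi and 24.01 to 33.6 CPM in CD34lo libraries.

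Of 6 endothelial markers, *Pecam1*, *Cdh5* and *Emcn* were higher in CD34lo, and *Kdr* and *Tek* were higher in CD34hi fibroblasts. *Vwf* did not pass at -1.20 (adjusted p = 0.0713, edgeR). With pool as the replicate block it was higher in CD34lo (-1.28, adjusted p = 0.00545, edgeR). *Pecam1*, the antigen CD31 that the sort depleted, was at 3.22 to 10.3 CPM in CD34hi and 12.1 to 18.4 CPM in CD34lo libraries, and the sum of the 6 was 536 to 698 CPM in CD34hi and 57.2 to 102 CPM in CD34lo libraries. *Tek* alone had 473 to 647 CPM in CD34hi and 21.9 to 41.9 CPM in CD34lo libraries. Of 7 mural cell markers, *Rgs5*, *Cspg4*, *Notch3*, *Myh11* and *Des* were higher in CD34lo and *Kcnj8* was higher in CD34hi fibroblasts, with a sum of 139.7 to 196 CPM in CD34hi and 186 to 274 CPM in CD34lo libraries. *Notch3* was at 2.98 to 6.06 CPM in CD34hi and 29.6 to 56.1 CPM in CD34lo libraries. The part of these cells in the *Tgfb1* difference was not tested.

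*Tgfb3* (gene 21809, chromosome 12, 86056743 to 86079041) encodes the third ligand, known from mammary involution and palate closure. It had 50.5, 57.1 and 52.9 CPM in CD34hi and 73.1, 96.9 and 80.9 CPM in CD34lo libraries of pools 1, 2 and 3. The populations did not overlap, but the fold between them was the smallest of the 3 ligands. The fit gave -0.64 on the log2 scale (standard error 0.13, adjusted p = 0.00494, edgeR). An annotated antisense gene overlaps its end but had 3 counts in all libraries together, against 15907 for *Tgfb3*.

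*Tgfbr2* (gene 21813, chromosome 9, 116087695 to 116175363), the type II receptor that binds the ligand first, differed most among the receptors. It had 1319.9, 1824 and 1591 CPM in CD34hi libraries and 386, 456 and 408 CPM in CD34lo libraries. The lowest CD34hi library exceeded the highest CD34lo library. The fitted difference was 1.92 on the log2 scale (standard error 0.16, adjusted p = 4.47e-05, edgeR), or 3.79-fold, and 1.77, 2.00 and 1.96 in the separate pools.

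*Tgfbr1* (gene 21812, chromosome 4, 47353305 to 47414924), the type I receptor kinase, had 191, 166 and 129 CPM in CD34hi and 143, 150.3 and 176 CPM in CD34lo libraries. The ranges overlapped, and the pools disagreed in direction, being higher in CD34hi in pools 1 and 2 and lower in pool 3. The log2 fold change was 0.05, with a 95% confidence interval of -0.32 to 0.42 (adjusted p = 0.833, edgeR). *Tgfbr3* (gene 21814, chromosome 5, 107106570 to 107289595) encodes betaglycan, a co-receptor that presents ligand to the type II receptor. It had 508, 551 and 629 CPM in CD34hi and 347, 483 and 449.7 CPM in CD34lo libraries. Its values did not overlap and were higher in CD34hi fibroblasts in 3 of 3 pools, but the log2 fold change of 0.40 (95% confidence interval 0.03 to 0.77) did not pass (adjusted p = 0.0859, edgeR). When the fit carried pool as the replicate block, it was 0.41 and passed (adjusted p = 0.0345, edgeR). No call of the other 9 genes changed with the block, under which 6 of the 10 genes passed, against 40.5% of all genes.

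*Ltbp1* (gene 268977, chromosome 17, 75005529 to 75392967) encodes a binding protein that can attach the propeptide of all 3 ligands. It had 636, 620.3 and 727 CPM in CD34hi and 179.5, 213 and 223 CPM in CD34lo libraries. All CD34hi libraries stood well above all CD34lo libraries. The fitted difference was 1.69 on the log2 scale (standard error 0.14, adjusted p = 4.02e-05, edgeR), a 3.22-fold difference, with 1.82, 1.54 and 1.70 in the separate pools. The fitted gene spans both annotated starts, so the counts do not say which *Ltbp1* transcript differed.

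The other binding proteins showed no difference that passed. *Ltbp4* (gene 108075, chromosome 7, 27305141 to 27337612), which is also needed for elastic fibre assembly, had 1064, 1285 and 1388 CPM in CD34hi and 1016, 1875 and 1202 CPM in CD34lo libraries. The populations overlapped, and pool 2 of CD34lo stood highest of the 6 libraries. Its log2 fold change was -0.13 (95% confidence interval -0.66 to 0.40, adjusted p = 0.701, edgeR). *Ltbp3* (gene 16998, chromosome 19, 5740904 to 5758532), a binding protein known for its role in bone and teeth, had 259, 254 and 287 CPM in CD34hi and 299.8, 337 and 296 CPM in CD34lo libraries. These values did not overlap, and the log2 fold change of -0.22 (95% confidence interval -0.50 to 0.05) did not pass (adjusted p = 0.188, edgeR). *Ltbp2* (gene 16997, chromosome 12, 84783212 to 84876495) encodes the member that does not bind latent TGF-beta. It was low, at 2.19, 4.53 and 4.48 CPM in CD34hi and 6.38, 4.75 and 2.15 CPM in CD34lo libraries. The pools went different ways, with log2 differences of -1.54, -0.07 and 1.06, and the fitted interval was wide (-0.26, 95% confidence interval -1.19 to 0.67, adjusted p = 0.664, edgeR).

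**Figure D2:**
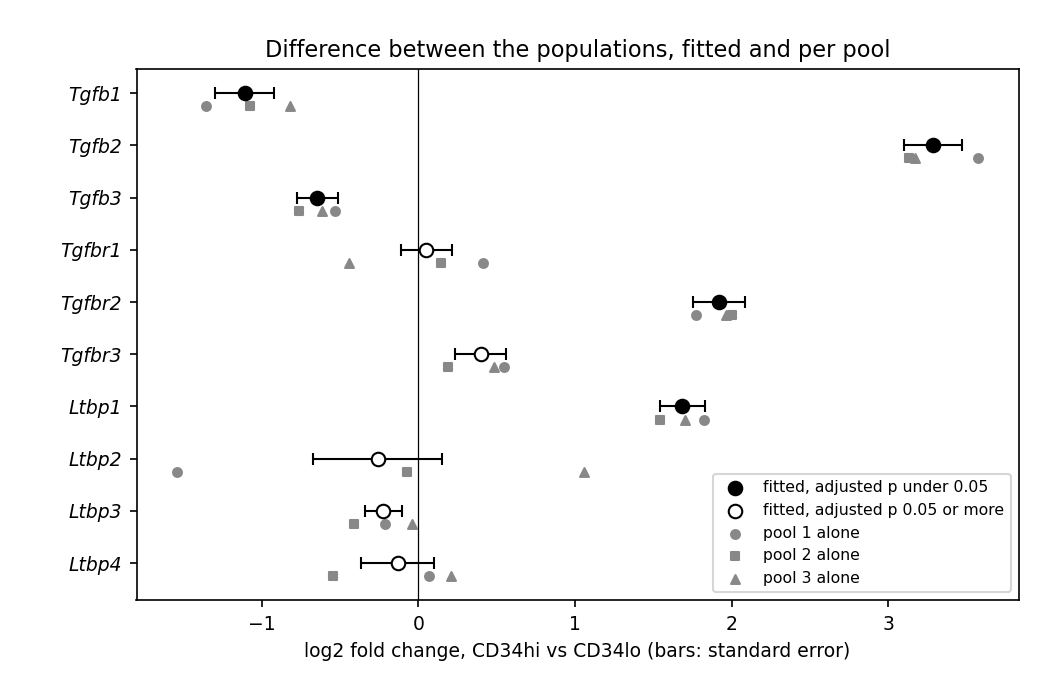
Log2 fold change (CD34hi vs CD34lo) of the 10 genes. Circles are the edgeR estimates with their standard errors, filled where the adjusted p was under 0.05, and the grey symbols beneath them are the differences within each mouse pool. The pools lie close together for *Tgfb2* (3.13 to 3.58) and *Tgfbr2* (1.77 to 2.00) and far apart for *Ltbp2* (-1.54 to 1.06).

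To compare levels between genes, CPM were divided by the gene length in the deposited table (CPM per kilobase), which assumes that the cells use the whole annotated gene model. In CD34hi fibroblasts, *Tgfbr2* was the most abundant of the 10 at 329.6 ± 52.7 CPM per kilobase (SD, n = 3), followed by *Ltbp4* at 223 ± 29.6, *Tgfbr3* at 92.9 ± 10.2 and *Ltbp1* at 81.2 ± 7.05 CPM per kilobase. *Ltbp3* at 51.3, *Tgfbr1* at 28.6, *Tgfb2* at 25.7, *Tgfb3* at 15.8, *Tgfb1* at 4.35 and *Ltbp2* at 0.565 CPM per kilobase came after them. The neighbours *Tgfbr3* and *Ltbp1*, and *Tgfbr1* and *Tgfb2*, had overlapping ranges, whereas the other neighbours did not overlap.

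In CD34lo fibroblasts the order was led by *Ltbp4* at 244 ± 80.8 CPM per kilobase (SD, n = 3), with *Tgfbr2* at 87.1 ± 7.45, *Tgfbr3* at 70.5 ± 11.7 and *Ltbp3* at 59.9 ± 4.37 CPM per kilobase after it. The next levels were 27.6 for *Tgfbr1*, 25.2 for *Ltbp1* and 24.7 for *Tgfb3*, and the lowest were 9.35 for *Tgfb1*, 2.64 for *Tgfb2* and 0.671 CPM per kilobase for *Ltbp2*. Ranges overlapped between *Tgfbr3* and *Ltbp3*, between *Tgfbr1* and *Ltbp1* and between *Ltbp1* and *Tgfb3*. *Tgfb2* was therefore the highest of the 3 ligands in each CD34hi library and the lowest in each CD34lo library.

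The makeup of the ligand family followed from these levels. *Tgfb2* made up 55.9% ± 3.36 (SD, n = 3) of the summed ligand level per kilobase in CD34hi and 7.16% ± 0.963 in CD34lo fibroblasts. *Tgfb3* made up 34.6% ± 2.68 in CD34hi and 67.2% ± 5.996 in CD34lo, and *Tgfb1* 9.54% ± 1.33 in CD34hi and 25.6% ± 6.85 in CD34lo fibroblasts. For each ligand the shares of the populations did not overlap. This gave p = 0.1 in an exact two-sided permutation test, the smallest p that 3 unpaired libraries against 3 allow. The permutation tests of shares and sums exchanged libraries across pools and so did not use the pairing by pool. The sum of the 3 ligands was closer between the populations, at 45.9 ± 4.003 CPM per kilobase in CD34hi and 36.7 ± 3.23 in CD34lo fibroblasts (n = 3, exact permutation p = 0.1).

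Among the binding proteins, *Ltbp1* made up 22.9% ± 1.55 (SD, n = 3) of the family sum in CD34hi and 7.90% ± 1.58 in CD34lo fibroblasts, and *Ltbp4* made up 62.5% ± 2.502 and 73.1% ± 4.81 (exact two-sided permutation p = 0.1 for each). The share of *Ltbp3* was 14.5% ± 1.02 in CD34hi and 18.7% ± 3.42 in CD34lo fibroblasts (n = 3, exact permutation p = 0.2). *Ltbp4* thus held the largest share in all 6 libraries. The receptor shares were computed after the levels had been seen and are given without a test. *Tgfbr2* held 70.1% to 76.0% of the receptor sum in CD34hi and 44.7% to 49.4% in CD34lo libraries, and *Tgfbr1* held 4.97% to 8.56% and 13.2% to 16.3%.

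**Figure D3:**
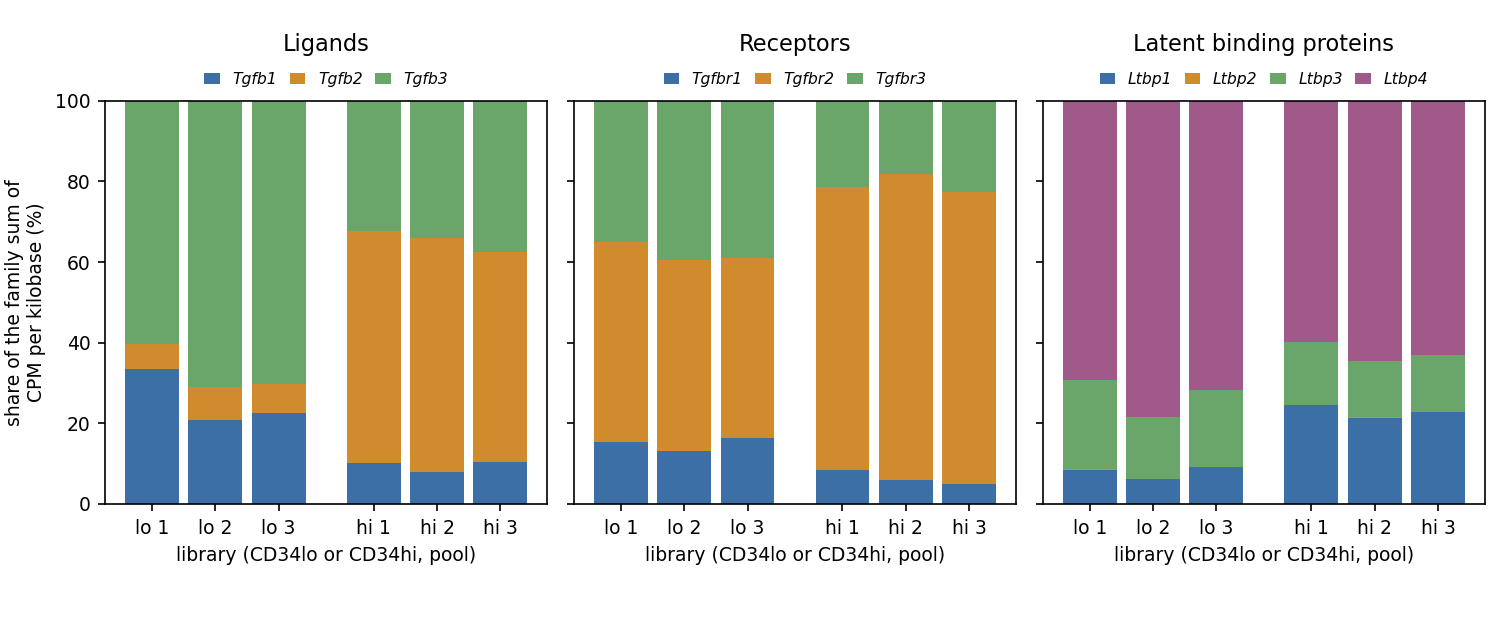
Share (%) of each gene in the summed CPM per kilobase of its family, with 1 bar per library (lo, CD34lo; hi, CD34hi; the number is the mouse pool). The *Tgfb2* segment of the ligands is between 6.24% and 8.16% in CD34lo and between 52.0% and 58.0% in CD34hi libraries, and the *Ltbp1* segment is wider in every CD34hi than in every CD34lo library.

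Other genes of the pathway were read from 5 lists with 58 genes, of which 56 were tested. Of these, 12 were higher in CD34hi, 22 were higher in CD34lo and 22 did not pass, against 16.9% and 18.7% of all genes. The same shares of all genes apply to the count of each list below. Their median log2 fold change was -0.08, and -0.01 over all genes.

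The first list held anchors and processing regulators of the latent complex, and all 5 tested genes of 6 passed, 2 higher in CD34hi and 3 in CD34lo fibroblasts (median -1.43). *Fbn1*, the fibrillin of adult microfibrils to which the binding proteins attach, had 6075 to 7599 CPM in CD34hi and 1271 to 1773 CPM in CD34lo libraries, a log2 fold change of 2.18 (adjusted p = 4.97e-05, edgeR). *Fbn2*, the fibrillin most prominent in development, went the other way, with 10.5 to 15.9 CPM in CD34hi and 55.7 to 134 CPM in CD34lo libraries (-3.02, adjusted p = 0.000167, edgeR). *Fn1*, which encodes fibronectin, was higher in CD34hi by 1.29. *Lrrc32*, whose product GARP holds latent TGF-beta on the cell surface, and *Emilin1*, an inhibitor of proprotein processing, were higher in CD34lo fibroblasts, with log2 fold changes of -1.89 and -1.43. *Nrros* was too low to be tested.

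Of 12 genes that process or release latent TGF-beta, 11 were tested, and 3 were higher in CD34hi, 2 were higher in CD34lo and 6 did not pass (median 0.04). *Thbs1*, encoding the activator thrombospondin-1, had 1030 to 1452 CPM in CD34hi and 3153 to 5442 CPM in CD34lo libraries (-1.71, adjusted p = 0.000626, edgeR). The integrin chains differed among themselves. *Itgb8* was higher in CD34lo fibroblasts (-3.34), with 0.331 to 0.604 CPM in CD34hi and 3.31 to 5.53 CPM in CD34lo libraries. *Itgb6* had 1.52 to 1.81 CPM in CD34hi libraries and 0.184, 0 and 0.0643 CPM in CD34lo libraries, near the floor of 3 counts, and was called higher in CD34hi fibroblasts. *Itgb3* was higher in CD34hi by 0.995 on the log2 scale, and *Bmp1*, a protease that cuts LTBP1, by 1.02. *Itgav*, the alpha chain that pairs with all 3, stood at -0.24, *Itgb1*, another beta chain, at -0.09 and the convertase *Furin* at 0.04, none of which passed. *Itgb5*, a further beta chain, did not pass at an adjusted p of 0.0518 (edgeR) and did with the replicate block (0.35, adjusted p = 0.0409, edgeR).

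Of 12 co-receptors and extracellular binders, 3 were higher in CD34hi, 4 were higher in CD34lo and 5 did not pass (median -0.05). Those higher in CD34hi were *Aspn* (1.60), *Htra3* (1.39) and *Vasn* (1.38), which encode an extracellular proteoglycan, a secreted protease and a membrane protein that are each known to limit TGF-beta. Those with the largest change towards CD34lo were *Fmod* (-5.19), *Bgn* (-2.37) and *Cd109* (-1.88), which encode a pair of ligand-binding proteoglycans and a co-receptor that dampens the receptors. *Dcn*, the related proteoglycan decorin, did not pass at -0.34. *Acvrl1*, a type I receptor of the same family, did not pass at an adjusted p of 0.0675 (edgeR) and did with the replicate block (0.37, adjusted p = 0.0464, edgeR).

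In the SMAD cascade, 3 of 15 genes were higher in CD34hi, 2 were higher in CD34lo and 10 did not pass (median 0.22). The signal carriers *Smad2* (-0.07), *Smad3* (-0.38) and *Smad4* (0.28) were among those that did not pass, as was the inhibitor *Smad7* (-0.14). With the replicate block, *Smad3* passed at -0.37 (adjusted p = 0.0258, edgeR), as did *Skil*, a repressor of SMAD signaling, at 0.48 (adjusted p = 0.0149, edgeR). This made 7 of 15, against 40.5% of all genes with the block. Without the block it was 5 of 15, against 35.6% of all genes. The ubiquitin ligase genes *Smurf1* and *Smurf2*, which target receptors and SMADs for degradation, were higher in CD34hi fibroblasts. *Smurf2* had 206 to 235 CPM in CD34hi and 84.2 to 86.8 CPM in CD34lo libraries (1.36, adjusted p = 3.30e-05, edgeR), and *Smurf1* had a log2 fold change of 1.20. *Zfyve9*, the SMAD anchor SARA, was higher in CD34hi by 0.39 (adjusted p = 0.0386, edgeR), a call that was lost in 9 of 18 alternatives. The repressor *Tgif2* and the SMAD4 ubiquitin ligase *Trim33* were higher in CD34lo fibroblasts (-1.45 and -0.55), and *Trim33* did not pass without pool 1 (adjusted p = 0.0630, edgeR).

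Of 13 genes known to be induced by TGF-beta in fibroblasts, 11 were higher in CD34lo fibroblasts, 1 was higher in CD34hi and 1 did not pass (median -2.04). The list is not complete, so this count and median hold for these 13 genes only. Genes that TGF-beta can also induce were counted in other lists, such as *Fn1* (1.29, higher in CD34hi). *Skil* (0.50) and *Smad7* (-0.14), also counted elsewhere, did not pass in the fit without the replicate block. With the block *Skil* passed (adjusted p = 0.0149, edgeR), whereas *Smad7* did not (adjusted p = 0.375, edgeR). *Tgfbi* and *Cilp* are among the 13 because the study names them as TGF-beta-associated, so they are not independent of it. *Tnc*, encoding the matrix protein tenascin-C, changed most, with 5.55 to 13.3 CPM in CD34hi and 99.2 to 216 CPM in CD34lo libraries (-4.26, adjusted p = 8.93e-05, edgeR). *Acta2*, encoding smooth muscle actin, followed at -3.36, and *Postn*, encoding the matrix protein periostin, at -2.59. *Postn* had 1790 to 2515 CPM in CD34hi and 10944 to 14764 CPM in CD34lo libraries. *Loxl2*, a collagen crosslinking enzyme, was the gene higher in CD34hi (0.53, adjusted p = 0.0110, edgeR), and this call was lost without pool 1, without pool 2 and without CD34hi replicate 2, where the adjusted p rose to at most 0.0981 (edgeR). *Lox*, another crosslinking enzyme, did not pass at -0.59, but did with the replicate block at -0.63 (adjusted p = 0.0102, edgeR). *Acta2*, *Tagln* and *Cnn1* are also smooth muscle genes, and the mural marker *Myh11* moved with them, at 1.57 to 2.90 CPM in CD34hi and 32.4 to 36.6 CPM in CD34lo libraries. The mural markers *Rgs5*, *Cspg4*, *Notch3* and *Des* were also higher in CD34lo. Against them, *Kcnj8* was higher in CD34hi (1.39) and *Abcc9* did not pass (0.21, adjusted p = 0.603, edgeR). The mural sums overlapped, at 139.7 to 196 CPM in CD34hi and 186 to 274 CPM in CD34lo libraries. The part of mural cells in these differences was not tested.

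**Figure D4:**
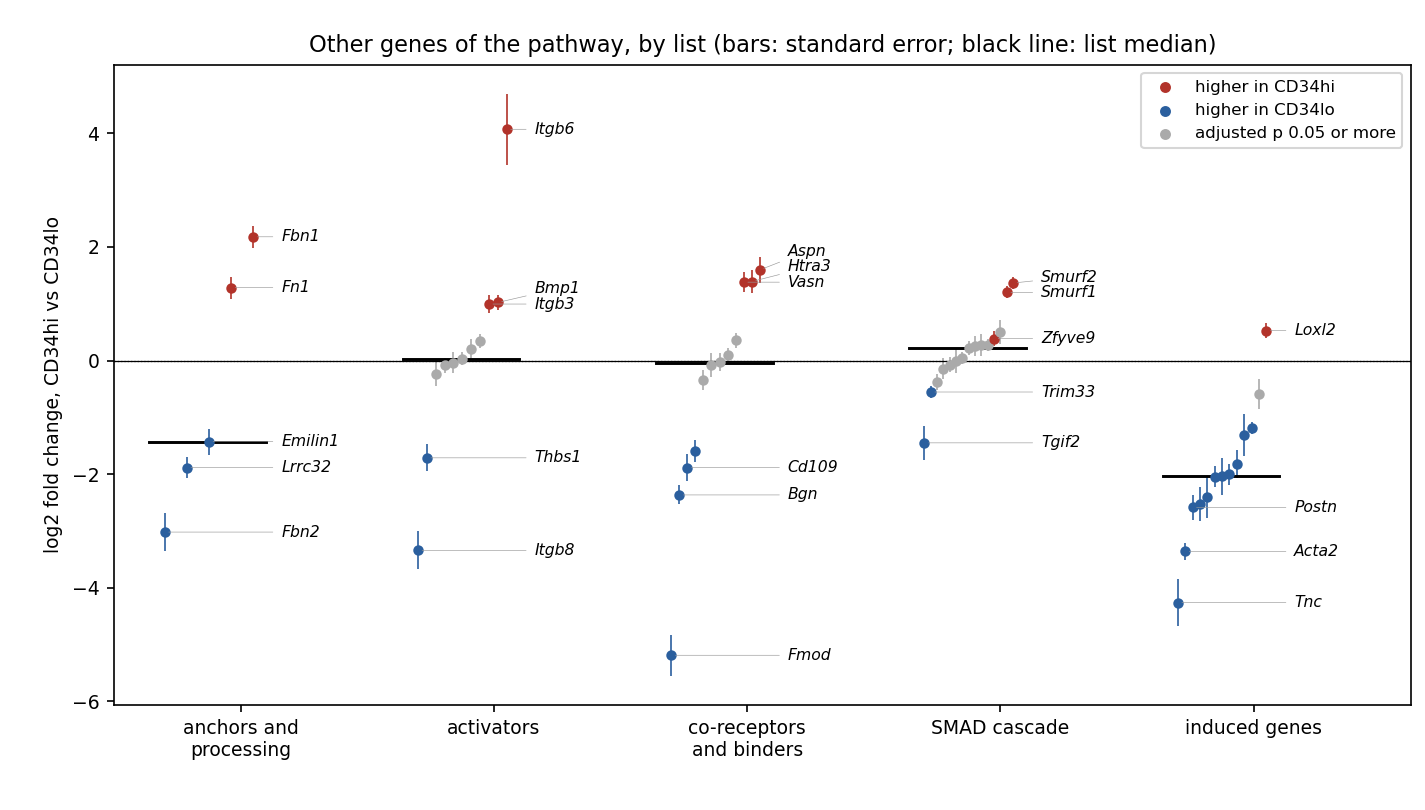
Log2 fold change (CD34hi vs CD34lo) with standard error of the 56 tested pathway genes, by list. Red points were higher in CD34hi, blue points higher in CD34lo and grey points had an adjusted p of 0.05 or more, black lines are list medians, and the dotted line is the median of all genes (-0.01). The listed induced genes lie mostly below 0 (median -2.04), whereas the SMAD cascade is centred near 0 (median 0.22).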

How the data were processed

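RNA was measured in 6 libraries, 3 of CD34hi and 3 of CD34lo fibroblasts. TruSeq RNA v2 libraries, which do not mark strand, were sequenced on an Illumina NextSeq. Alignment by the authors was to GRCm38/mm10, and gene counts came from Rsubread 2.2.6. The deposited values are counts without normalization, with gene coordinates and lengths. The annotation, strand setting and treatment of multi-mapping reads were not given in the sources used here. The study states filterByExpr, TMM and voom (limma 3.44.3).

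Symbols came from RefSeq (25275 of 27179 genes matched). The tests used edgeR 4.0.16 under R 4.3.3 (filterByExpr, TMM, quasi-likelihood test of CD34hi vs CD34lo), Benjamini-Hochberg adjustment over 15219 genes and a threshold of 0.05. Standard errors are the log2 fold change over the square root of F. CPM use TMM-scaled library totals. Shares were compared by exact permutation in SciPy, without the pairing by pool. The script was tested on simulated data. It recovered 60 of 100 genes with an absolute log2 change of 1 and 88 of 100 with a change of 2. Of its 160 calls, 12 were false.

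Libraries of a number come from the same mouse pool. Between the paired libraries of a pool, each gene's departure from its population mean had Pearson's r of 0.279, 0.0844 and 0.243 across 15219 genes, which are not independent replicates. Replicates of a population differed by more than sampling noise (chi-square per degree of freedom at least 23.85).

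Alternatives were limma-voom (3.58.1), DESeq2 1.42.0, scaling by upper quartile or RLE, dropping the filter or asking for 10 counts in every library, the replicate block, thinning to 28764779 counts, each pool and library left out, an adjusted p under 0.01, and no length scaling. The genes and lists were chosen with earlier results of these data known. Named pathway genes are, per list, the 3 with the largest change in each direction among those that passed, and every passing gene of a side with 3 or fewer; *Itgav*, *Itgb1*, *Furin*, *Dcn*, *Lox*, *Nrros*, *Tagln*, *Cnn1*, *Tgfbi*, *Cilp*, *Smad2*, *Smad3*, *Smad4*, *Smad7*, *Skil*, *Itgb5* and *Acvrl1* were added for their roles or their call with the block after their values were seen.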

Additional observations from a re-analysis of the deposited data

How the results depend on the processing

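Over 18 alternatives each, *Tgfb1* (-1.23 to -0.86), *Tgfb2* (3.17 to 3.47), *Tgfb3* (-0.71 to -0.53), *Tgfbr2* (1.81 to 2.06) and *Ltbp1* (1.62 to 1.76) kept their direction and passed, with a highest adjusted p of 0.0429 (*Tgfb3*, across edgeR, limma-voom and DESeq2). With pool as the replicate block, *Tgfbr3* passed at a log2 fold change of 0.407 in edgeR (adjusted p = 0.0345) and 0.405 in limma-voom (adjusted p = 0.0226), and its adjusted p ranged from 0.0226 to 0.226 over all alternatives. The block changed no other call of the 10 genes. Among the pathway genes it added *Itgb5*, *Acvrl1*, *Smad3*, *Skil* and *Lox* and took away none, so that 6 activators, 8 binders, 7 genes of the SMAD cascade and 13 induced genes passed, from 5, 7, 5 and 12. Of all genes, 40.5% passed with the block and 35.6% without it.

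Leaving out a pool or library took *Tgfbr1* from -0.117 (without replicate 1) to 0.285, *Ltbp2* from -0.74 to 0.414 (without replicate 1) and *Ltbp4* from -0.296 to 0.165 (without CD34lo replicate 2), so none of these had a stable direction. *Tgfbr1* was -0.0032 with upper-quartile scaling. The difference in the share of *Ltbp2* ran from -0.12 to 0.0439 percentage points. Without division by gene length, the differences in share became 55.1 for *Tgfb2*, -42.9 for *Tgfb3* and 19.2 percentage points for *Ltbp1*, from 48.7, -32.6 and 15.0. An adjusted p under 0.01 left 3444 genes, 1559 higher in CD34hi and 1885 in CD34lo. Leaving out a pool or library gave 3468 to 5236 genes (1608 to 2456 higher in CD34hi, 1860 to 2780 in CD34lo), the fewest without replicate 1. The SMAD cascade then had 3 to 7 genes (2 to 5 higher in CD34hi, 1 to 3 in CD34lo), and the induced genes 0 to 1 higher in CD34hi. With fewer libraries there are fewer degrees of freedom, and the cause of each other move was not tested. At 3 libraries per population, an exact permutation test cannot pass 0.05, and depth limits genes under 1 CPM in a population, such as *Itgb6* in CD34lo.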
